A study of Mus musculus with 50 samples.

Results

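The genes described here encode the DNA-binding TEAD proteins and the coactivators that work through them: Tead1, Tead2, Tead3, Tead4, Yap1 and Wwtr1, the gene of the protein TAZ. They were taken by symbol from the deposited table and are 6 of its 35750 genes. All 6 were found and all 6 passed the filter on low values in every comparison. RNA was sequenced from tubes that each held 5 mouse embryos of the C57BL6/J strain, genotype WT, from superovulated and mated females. Duxbl embryos had been injected as zygotes with 200 ng/µl of mRNA for V5-tagged Duxbl followed by 2A and nuclear mCherry, mCherry embryos with 200 ng/µl of mRNA for nuclear mCherry, and uninjected embryos with nothing. Each treatment was sampled at late 1C (the late 1-cell stage, 28 to 30 h after hCG), early 2C (the early 2-cell stage, 32 h) and late 2C (the late 2-cell stage, 48 h). Duxbl embryos gave 4, 5 and 5 libraries at these stages, and mCherry and uninjected embryos gave 6 each, 50 libraries in all. The labels do not say whether the pools of a group came from separate injection days or females, so p-values measure the spread between these pools.

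TEAD proteins bind DNA but activate transcription only weakly by themselves. YAP (from Yap1) and TAZ (from Wwtr1) bind them and supply the activating function. The Hippo kinases, MST and LATS with their adaptors, phosphorylate YAP and TAZ and keep them out of the nucleus. In the mouse embryo, Tead4 with nuclear YAP or TAZ is required in the outer cells of the morula for the trophectoderm, the lineage of the placenta. Duxbl encodes a homeobox factor of the DUX family, and the study concerns its part in leaving the totipotent state.

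On mm39, Tead1 (ENSMUSG00000055320) lies on chromosome 7 from 112278525 to 112506014 on the plus strand, and Tead2 (ENSMUSG00000030796) on chromosome 7 from 44865177 to 44883068 on the plus strand. Tead3 (ENSMUSG00000002249) lies on chromosome 17 from 28550645 to 28569791 on the minus strand, and Tead4 (ENSMUSG00000030353) on chromosome 6 from 128201251 to 128277786 on the minus strand. Yap1 (ENSMUSG00000053110) lies on chromosome 9 from 7932000 to 8004597 on the minus strand, and Wwtr1 (ENSMUSG00000027803) on chromosome 3 from 57363070 to 57483331 on the minus strand. The library kits do not mark strand, so reads of overlapping genes cannot be told apart. Each of Tead1, Tead2, Tead4, Yap1 and Wwtr1 overlaps 1 other gene of the table. The highest group mean of any of them was 5.24 CPM, for Cd37, which overlaps Tead2 by 13 bases. Of the 75-base words in the members' transcripts, none occurred in a transcript of another gene for Tead1, Tead2, Tead3, Tead4 and Wwtr1. For Yap1 43 of 9607 did, all in Gm20416, which overlaps it and stayed at or below 0.905 CPM in every group mean.

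The promoters of the coactivator genes and of Tead2 are shown because the levels of Wwtr1 and Yap1 moved in opposite directions at late 2C while Tead2 did not pass the test, and that of Ankrd1 as a target of YAP and TEAD for comparison. They are RefSeq sequences on GRCm38.p6, each from 250 bases before to 50 bases after the annotated start, read 5′ to 3′ on the gene's strand. Capitals mark GGAATG, the core that TEAD proteins bind.
Wwtr1 promoter, chr3:57575861-57576160, minus strand: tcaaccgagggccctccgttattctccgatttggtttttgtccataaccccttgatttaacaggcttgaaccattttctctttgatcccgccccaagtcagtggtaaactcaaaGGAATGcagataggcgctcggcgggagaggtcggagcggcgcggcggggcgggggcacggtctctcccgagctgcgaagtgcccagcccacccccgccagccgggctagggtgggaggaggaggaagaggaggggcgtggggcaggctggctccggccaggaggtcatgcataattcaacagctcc
Yap1 promoter, chr9:8004547-8004846, minus strand: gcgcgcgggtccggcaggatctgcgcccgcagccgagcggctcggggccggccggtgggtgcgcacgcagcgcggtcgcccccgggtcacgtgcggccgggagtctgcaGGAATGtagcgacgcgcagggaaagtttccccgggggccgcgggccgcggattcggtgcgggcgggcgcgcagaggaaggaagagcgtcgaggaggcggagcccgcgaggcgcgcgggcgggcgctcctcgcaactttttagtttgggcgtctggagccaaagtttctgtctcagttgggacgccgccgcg
Tead2 promoter, chr7:45215542-45215841, plus strand: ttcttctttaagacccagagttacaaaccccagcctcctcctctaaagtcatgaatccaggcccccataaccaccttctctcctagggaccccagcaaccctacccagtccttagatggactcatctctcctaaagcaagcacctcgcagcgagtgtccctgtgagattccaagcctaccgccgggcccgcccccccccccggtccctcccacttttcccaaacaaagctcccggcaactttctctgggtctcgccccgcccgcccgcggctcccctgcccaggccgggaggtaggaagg
Ankrd1 promoter, chr19:36119795-36120094, minus strand: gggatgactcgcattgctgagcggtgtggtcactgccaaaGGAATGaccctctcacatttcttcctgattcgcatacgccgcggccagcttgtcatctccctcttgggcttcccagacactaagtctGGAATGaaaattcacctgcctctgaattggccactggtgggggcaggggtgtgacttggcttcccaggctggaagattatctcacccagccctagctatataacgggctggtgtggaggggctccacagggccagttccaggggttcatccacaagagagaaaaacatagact

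The Wwtr1 and Yap1 windows each hold 1 copy of GGAATG, the Tead2 window none and the Ankrd1 window 2. A second window of Wwtr1, which overlaps the one shown, holds the same copy. Searched on both strands (GGAATG or CATTCC), the core is in 14.7% of the 32851 promoters of this length. Of the 6 members, 4 had a RefSeq promoter. For Tead3, which has 3 such windows, 2 hold the core. Neither an ETS-type site (CCGGAAG or CTTCCGG, in 8.86% of promoters) nor an OTX-type homeodomain site (TAATCC or GGATTA, in 7.06%) was found in a window of these 4 genes. The GC box (GGGCGG or CCGCCC, in 35.7%) was in each of the members' 7 windows. The motifs were chosen with the levels known, and a match describes letters only.

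Levels are given as CPM, here the deposited values relative to the library total times its trimmed-mean scaling factor. Deposited totals ran from 12.04 to 26.96 M per library (M, mega), with the lowest at late 2C. The values appear to have been scaled before deposit, in a way not given in the sources used here, so the depth behind a value is unknown. Duxbl1, whose reads combine the injected mRNA with the embryo's own transcripts, was at 1410 to 4799 CPM in the 14 Duxbl libraries and at 82.4 to 634.8 CPM in the 36 others, without overlap. At late 2C the trimmed-mean scaling factors were 0.964 to 1.11 in Duxbl libraries, but 1.43 and 1.49 in mCherry libraries 4 and 5 and 1.37 and 1.58 in uninjected libraries 4 and 5, while the other control libraries were at 1.09 to 1.18 apart from mCherry library 1 at 1.39.

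At late 2C, 3 of the 6 genes differed between Duxbl and mCherry embryos. Tead4 and Wwtr1 were lower in Duxbl embryos, with mean levels 139-fold and 8.58-fold higher in mCherry embryos, and Yap1 was 2.18-fold higher in Duxbl embryos. Tead1, Tead2 and Tead3 did not pass the threshold. Over all genes tested, 55.9% were called in this comparison, 26.8% higher and 29.1% lower, so the members' share of 3 of 6 is near the background. The share of all genes whose libraries separated completely between groups was not counted, so such separation is given below only as a description. With bulk pools, fewer cells and less RNA per cell cannot be told apart.

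**Figure D1:**
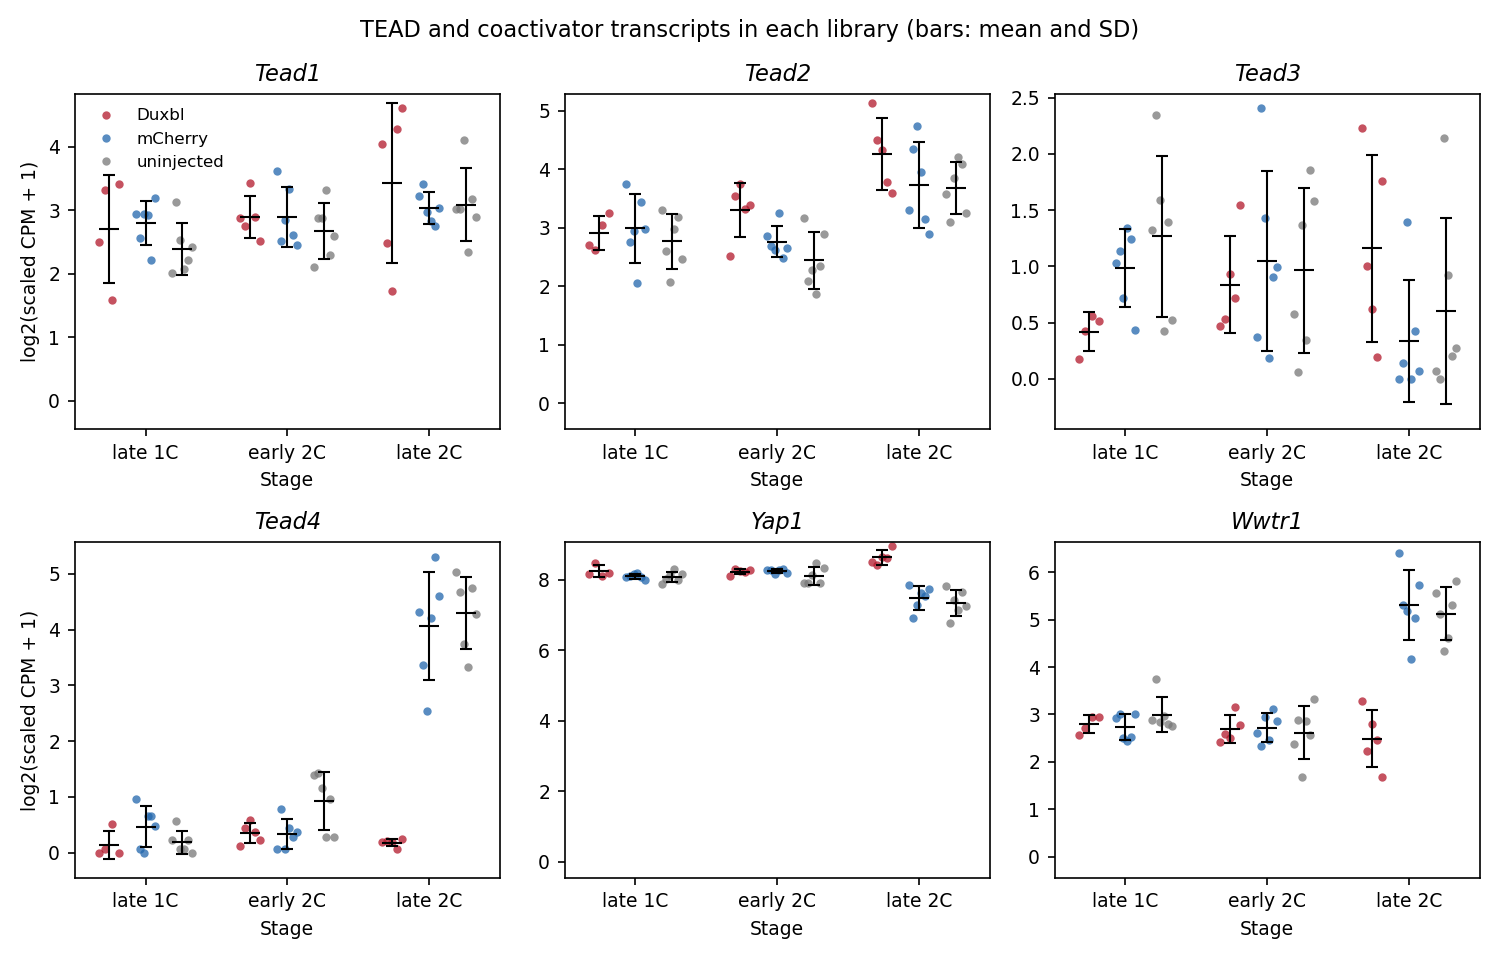
Level of each gene in every library, as log2(scaled CPM + 1), by stage and treatment. Points are libraries (pools of 5 embryos), and black bars give the mean and SD of a group. At late 2C all 5 Duxbl libraries lie below all mCherry and uninjected libraries for Tead4 and Wwtr1, and above them for Yap1. The share of all genes that separate in this way was not counted, and 55.9% of all genes tested were called between Duxbl and mCherry embryos there.

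Tead4, the TEAD factor that the mouse trophectoderm requires, was at 0.144, 0.151, 0.147, 0.0468 and 0.184 CPM in the 5 Duxbl libraries at late 2C. In the 6 mCherry libraries its lowest, median and highest values were 4.83, 18.2 and 38.4 CPM, and in the 6 uninjected libraries 9.04, 21.4 and 31.7 CPM. Every Duxbl library was below every library of the other groups, and their deposited values for Tead4 were between 1 and 4, close to the lowest the table holds. The means were 0.134 ± 0.0516 CPM in Duxbl (SD, n = 5), 18.7 ± 11.7 CPM in mCherry (n = 6) and 20.3 ± 8.63 CPM in uninjected embryos (n = 6). The log2 change between Duxbl and mCherry embryos was -3.88 (SE 0.44) on the log2(CPM + 1) scale, with a limma adjusted p of 1.73e-07. This scale understates the change of a gene at such low levels, and with 0.1 in place of 1 CPM added it was -6.08.

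Wwtr1, the gene of the coactivator TAZ, was at 8.71, 3.66, 5.98, 4.50 and 2.21 CPM in the Duxbl libraries at late 2C. Its lowest, median and highest values were 17.1, 37.0 and 83.6 CPM in mCherry libraries, and 19.3, 36.2 and 54.9 CPM in uninjected libraries. The Duxbl libraries were all lower, and the other groups overlapped each other over most of their range. The log2 change against mCherry embryos was -2.81 (SE 0.39), with a limma adjusted p of 2.43e-06.

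Yap1, the gene of the coactivator YAP, moved the other way. It was at 361.6, 345.4, 402.6, 393.4 and 499.2 CPM in the Duxbl libraries at late 2C. Its lowest, median and highest values were 120.9, 191.1 and 230.8 CPM in mCherry libraries, and 107.8, 161.5 and 225.4 CPM in uninjected libraries. No Duxbl library overlapped the other groups. The log2 change against mCherry embryos was 1.14 (SE 0.22), with a limma adjusted p of 0.000122. Without the libraries numbered 4 and 5, the log2 changes were -4.22 for Tead4, -3.21 for Wwtr1 and 1.12 for Yap1, with limma adjusted p values of 2.8e-07, 3.01e-06 and 0.00163.

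Tead2, the TEAD gene with the highest level per kb before late 2C, was at 34.0, 21.6, 19.0, 12.7 and 11.05 CPM in the Duxbl libraries at late 2C. Its mCherry libraries ran from 6.37 to 25.7 CPM with a median of 11.7 CPM, and its uninjected libraries from 7.55 to 17.5 CPM. The groups overlapped, and the log2 change against mCherry embryos was 0.53 with a 95% confidence interval of -0.27 to 1.34 and a limma adjusted p of 0.248. Tead1 was at 15.4, 4.62, 2.30, 18.5 and 23.4 CPM in the same Duxbl libraries, wider than the 5.73 to 9.65 CPM of the mCherry libraries. Its log2 change was 0.39, with an interval of -0.56 to 1.35 and a limma adjusted p of 0.482. Tead3 had low values in every group, and at late 2C it was at 0.141 to 3.69 CPM in Duxbl libraries and at 0 to 1.63 CPM in mCherry libraries. Its log2 change was 0.82, with an interval of -0.05 to 1.70 and a limma adjusted p of 0.101. The log2(CPM + 1) scale understates changes at such low levels. The ratio of its mean CPM, Duxbl over mCherry, was 4.39, with groups that overlapped. Tead3 passed the threshold without mCherry library 4 (log2 change 1.04, adjusted p 0.0425), without Duxbl library 6 (1.07, adjusted p 0.0446) and without the libraries numbered 4 and 5 (1.14, adjusted p 0.0169).

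Before late 2C no difference between Duxbl and mCherry embryos was called for any member. At late 1C limma called 0 of 6 members, against 0.0193% of all genes tested (0.00481% higher and 0.0144% lower), and the smallest adjusted p of a member was 0.855. At early 2C it called 0 of 6, against 0.42% of all genes (0.0283% higher and 0.392% lower). Neither stage had a member at an unadjusted p under 0.05, and limma with voom weights called 0 at both. At early 2C Tead4 averaged 0.282 ± 0.161 CPM in Duxbl embryos (n = 5) and 0.280 ± 0.251 CPM in mCherry embryos (n = 6), and Wwtr1 averaged 5.55 ± 1.45 CPM and 5.71 ± 1.39 CPM in the same order of groups. Yap1 ran from 275.1 to 314.9 CPM in Duxbl and from 288.7 to 317.3 CPM in mCherry libraries. The members with the largest changes were less alike. Tead2 averaged 9.21 CPM in Duxbl and 5.86 CPM in mCherry embryos at early 2C, a log2 change of 0.54 (95% confidence interval -0.01 to 1.10). Tead3 averaged 0.344 and 1.02 CPM at late 1C in the same order, a log2 change of -0.57 (-1.22 to 0.09).

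Whether the Duxbl effect at late 2C differed from that at early 2C was tested directly, as an interaction in a fit of all 9 groups. The difference was called for 3 of 6 members, against 44.9% of all genes tested (21.9% higher and 23.1% lower). It was -3.89 for Tead4 (SE 0.44, limma adjusted p 2.94e-10), -2.78 for Wwtr1 (SE 0.42, 3.32e-07) and 1.17 for Yap1 (SE 0.21, 5.55e-06), on the log2 scale. This fit shares 1 estimate of spread per gene over the 3 stages. For Yap1 its SE was below the 0.22 of the late 2C comparison alone. The SEs and p-values of interactions and of the steps into late 2C below may thus be too small. Between early 2C and late 1C a difference of the effects was called by limma for 0 of 6 members, against 0.00347% of all genes tested, with 0 at an unadjusted p under 0.05 and 0 with voom weights.

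The step from early 2C to late 2C was then followed within a treatment. In Duxbl embryos limma called 2 of 6 members, both higher, against 39.2% of all genes tested (20.4% higher and 18.8% lower). Tead4 averaged 0.282 ± 0.161 CPM at early 2C and 0.134 ± 0.0516 CPM at late 2C, a log2 change of -0.17 (SE 0.32) with an adjusted p of 0.735. Its deposited values were 2 to 11 and 1 to 4 at these stages, and it passed the filter through libraries of other groups. So near the floor, this step cannot show whether the level of Tead4 changed. Wwtr1 averaged 5.55 CPM at early 2C and 5.01 ± 2.48 CPM at late 2C, a log2 change of -0.20 (SE 0.31) with an adjusted p of 0.675. Yap1 ran from 275.1 to 314.9 CPM at early 2C and averaged 400.4 ± 59.9 CPM at late 2C, a log2 change of 0.41 (SE 0.15, adjusted p 0.0288). Tead2 averaged 9.21 and 19.7 CPM at the same stages, a log2 change of 0.96 (SE 0.33, adjusted p 0.0166). The Yap1 call was lost without Duxbl early 2C library 3 (adjusted p 0.0662), without Duxbl late 2C library 7 (0.104), on the deposited scale (0.199) and without the libraries numbered 4 and 5 (0.0862). The Tead2 call was lost without that early 2C library (0.0766), without Duxbl late 2C library 1 (0.0792) and in the fit of the compared groups alone (0.0508).

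In uninjected embryos limma called 4 of 6 members over the same step, 3 higher and 1 lower, against 56.9% of all genes tested (30.3% higher and 26.6% lower). Tead4 averaged 0.151 ± 0.174 CPM at late 1C, 0.991 ± 0.657 CPM at early 2C and 20.3 ± 8.63 CPM at late 2C (SD, n = 6 each). Its log2 change over the last step was 3.38 (SE 0.29, adjusted p 2.07e-14). Wwtr1 averaged 7.24, 5.50 and 36.0 CPM at the same stages, a log2 change of 2.51 over the last step (SE 0.28, adjusted p 7.6e-11). Tead2 averaged 6.11, 4.70 and 12.3 CPM, a log2 change of 1.24 (SE 0.30, adjusted p 0.000401). Yap1 averaged 272.8, 279.1 and 166.4 CPM and fell by 0.77 on the log2 scale (SE 0.14, adjusted p 4.17e-06), opposite in direction to the step in Duxbl embryos.

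Tead1 was called over neither step in either treatment. Over the 3 stages in order it averaged 6.30, 6.60 and 12.9 CPM in Duxbl embryos, and 4.46, 5.67 and 8.14 CPM in uninjected embryos. Without Duxbl late 2C library 4, the last step in Duxbl embryos was called for Tead1 (log2 change 0.96, adjusted p 0.0274), as it was without the libraries numbered 4 and 5 (1.09, adjusted p 0.0363). Tead3 averaged between 0.344 and 1.67 CPM in all 9 groups, with groups that overlapped. From late 1C to early 2C limma called 0 of 6 members in uninjected embryos, against 2.93% of all genes (1.12% higher and 1.81% lower). Tead4 had the smallest adjusted p there, 0.259, with a log2 change of 0.73 (SE 0.29) and an unadjusted p of 0.0166, and limma with voom weights called 0. With 0.1 CPM added in place of 1, this step was called for Tead4 (adjusted p 0.0396). In Duxbl embryos 0 of 6 members were called over that step, against 0.868% of all genes (0.0833% higher and 0.785% lower), with 0 at an unadjusted p under 0.05 and 0 with voom weights.

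**Figure D2:**
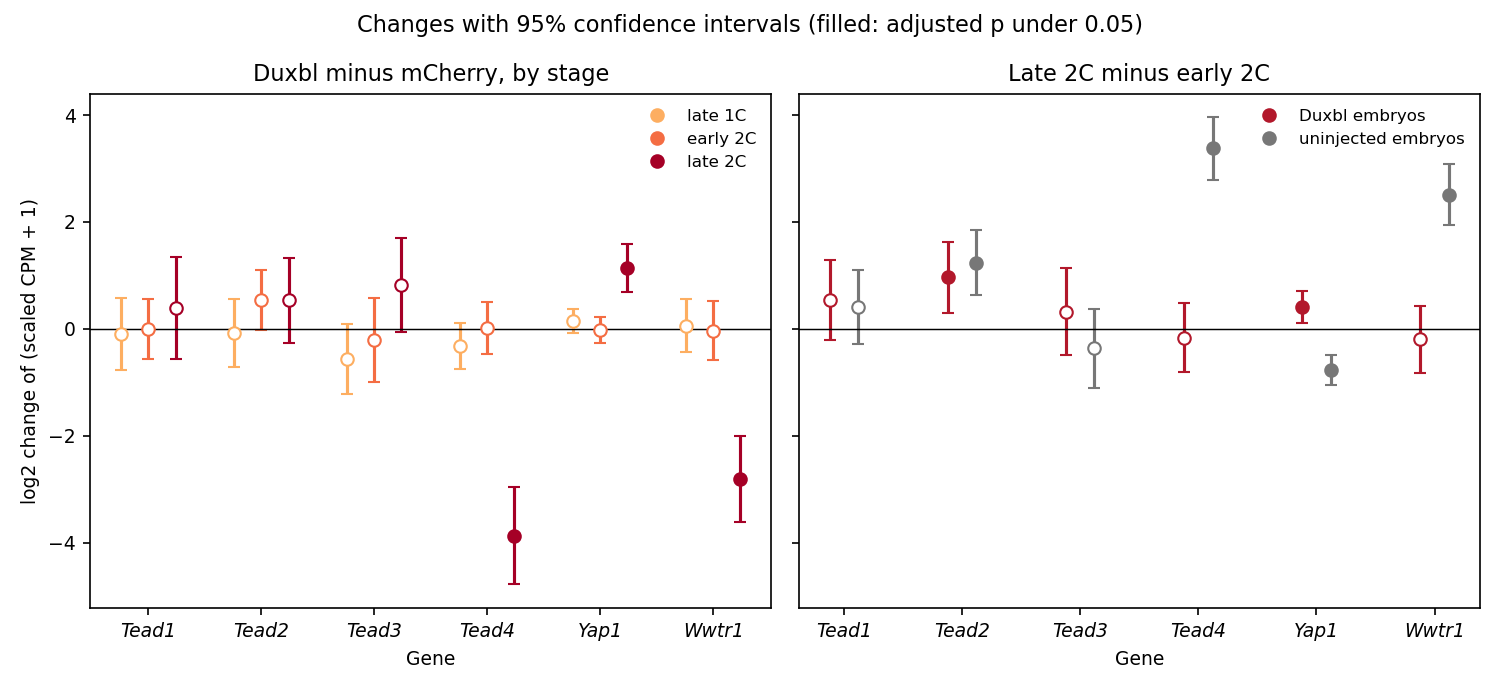
Log2 changes of the 6 genes with 95% confidence intervals from limma. The left panel gives Duxbl minus mCherry embryos at each stage, and the right panel late 2C minus early 2C in Duxbl and in uninjected embryos. Filled points have an adjusted p under 0.05: -3.88 for Tead4, -2.81 for Wwtr1 and 1.14 for Yap1 on the left.

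Injection of mCherry mRNA was compared with no injection at each stage. limma called 0 of 6 members and 0 genes in all, 0%, at each of the 3 stages, and 0 members with voom weights. Over all genes, 564, 781 and 383 had an unadjusted p under 0.05 at the 3 stages in order. At an unadjusted p under 0.05 there was 1 member in all, Tead4 at early 2C, where it averaged 0.280 ± 0.251 CPM in mCherry and 0.991 ± 0.657 CPM in uninjected embryos (n = 6 each). Its log2 change was -0.59 (SE 0.23), with an unadjusted p of 0.0163 and an adjusted p of 1. The groups overlapped, with 4 of the 6 uninjected libraries above every mCherry library.

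Levels were compared between genes per kb of exon, using the summed exon length of each gene in GENCODE M21 (3598 bases for Tead4, 4788 for Tead2, 13570 for Tead1, 6714 for Tead3, 9257 for Yap1 and 4779 for Wwtr1). At late 1C Tead2 held on average the largest share of the summed TEAD level in every treatment, with means of 71.9% in Duxbl, 66.3% in mCherry and 67.1% in uninjected embryos. At late 2C Tead4 held 0.743% of the summed TEAD level in Duxbl embryos (range 0.322% to 1.15% over 5 libraries), 56.8% in mCherry embryos (18.0% to 83.4% over 6) and 61.2% in uninjected embryos (38.1% to 76.4% over 6). Tead2 held 76.1%, 36.0% and 30.3% in the same order. The shares of Tead4 did not overlap between Duxbl and the other libraries. The summed TEAD level at late 2C was 5.32 CPM per kb in Duxbl, 8.67 in mCherry and 8.92 in uninjected embryos.

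Among the coactivators, Yap1 had the higher level per kb in every group mean. Wwtr1 held 2.46% of the summed Yap1 and Wwtr1 level at late 2C in Duxbl embryos (0.850% to 4.46%), 30.2% in mCherry embryos (14.3% to 41.2%) and 29.5% in uninjected embryos (17.9% to 41.2%). At early 2C it held 3.45%, 3.50% and 3.68% in the same order. The summed coactivator level at late 2C was 44.3 CPM per kb in Duxbl, 28.8 in mCherry and 25.5 in uninjected embryos. These shares are descriptions with no test, and exon lengths count all annotated isoforms.

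**Figure D3:**
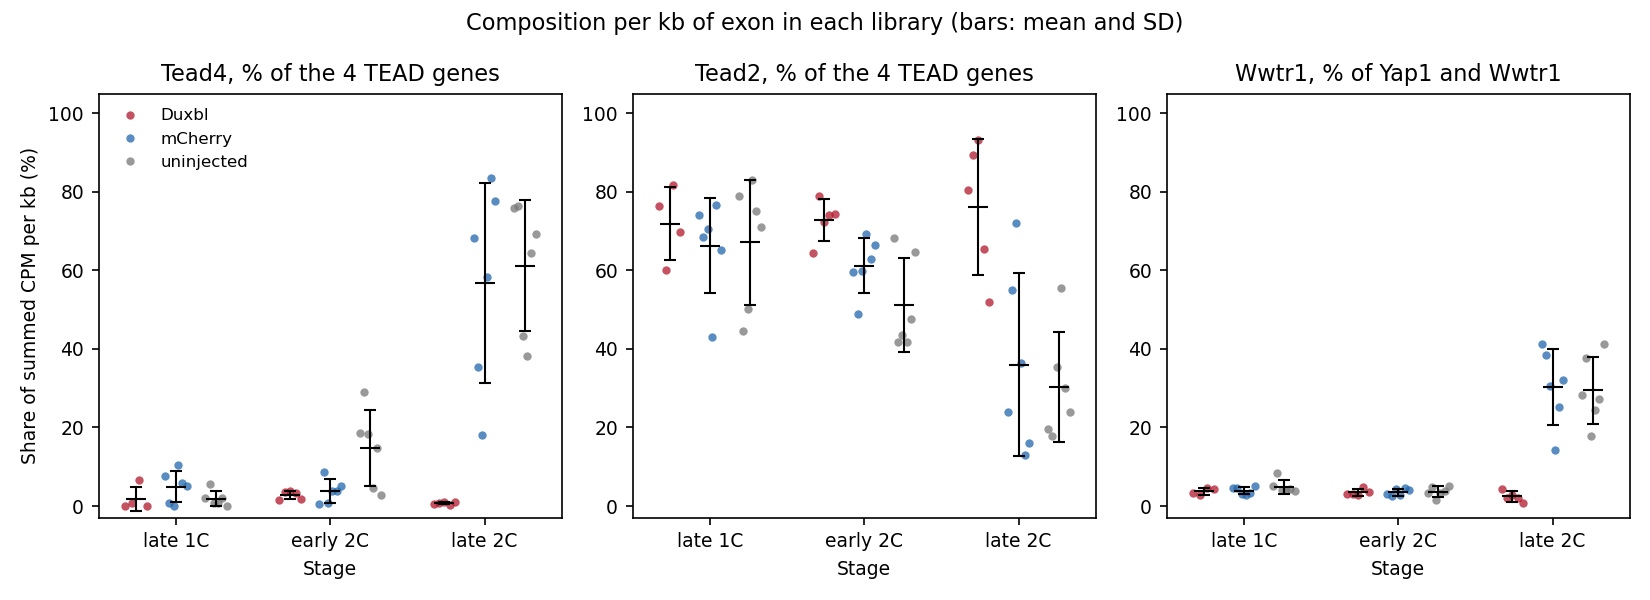
Share of Tead4 and of Tead2 in the summed level per kb of the 4 TEAD genes, and share of Wwtr1 in that of Yap1 and Wwtr1, in percent, by stage and treatment. Points are libraries, and bars give the mean and SD. At late 2C Tead4 holds at most 1.15% in a Duxbl library and at least 18.0% in a mCherry library.

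The genes around the TEAD and YAP proteins were taken from 7 lists with 101 genes in all, of which 4 are in more than 1 list. At late 1C and early 2C limma called 0 genes of every list between Duxbl and mCherry embryos, with 5 of 92 and 1 of 95 tested genes at an unadjusted p under 0.05. Over all genes these were 1195 of 20777 and 1011 of 21180. All calls below are at late 2C, where 55.9% of all genes were called and the median log2 change over all genes tested was -0.05. With scaling by library totals alone this median was -0.26 and the calls over all genes were 4957 higher and 7510 lower, in place of 6173 and 6703. Counts of calls in the lists are read beside that background.

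The list of YAP and TEAD target genes had 11 members higher and 2 lower among 20 tested in Duxbl against mCherry embryos, with a median log2 change of 1.29. Without the libraries numbered 4 and 5 the calls were 14 higher and 2 lower. With all libraries, the calls with the smallest adjusted p were those of Tgfb2, Gadd45b, Asap1 and Ajuba. Tgfb2, a TGF-beta ligand, averaged 1602 ± 330.4 CPM in Duxbl and 266.5 ± 88.5 CPM in mCherry embryos at late 2C (n = 5 and 6), a log2 change of 2.62 (limma adjusted p 1.21e-08). At early 2C it averaged 1147 and 1175 CPM in the same order. Asap1, which acts on Arf GTPases, averaged 313.1 and 98.5 CPM at late 2C in Duxbl and mCherry embryos (log2 change 1.69, adjusted p 5.84e-06). Gadd45b, a stress-response gene, averaged 26.3 and 226.4 CPM (-3.17, adjusted p 3.88e-08), and Ajuba, a LIM protein that restrains LATS, 12.9 and 91.6 CPM (-3.48, adjusted p 1.37e-05), in the same order. From early 2C to late 2C Tgfb2 was called higher in Duxbl embryos (log2 change 0.47, limma adjusted p 0.0468). In uninjected embryos it fell by 2.41 on the log2 scale (adjusted p 4.95e-17). The call in Duxbl embryos is close to the threshold of 0.05, and single genes of the lists were not followed under the alternatives.

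Ccn2 and Ankrd1, targets often used as readouts of YAP and TAZ, were picked after their values were seen. Among the 20 tested target genes, 11 were higher, 2 lower and 7 not called. Ccn2 ran from 0.882 to 15.3 CPM in Duxbl libraries at late 2C and from 0 to 0.737 CPM in mCherry libraries, a log2 change of 2.29 (SE 0.46, limma adjusted p 0.000236). Ankrd1 ran from 0.718 to 11.4 CPM in Duxbl libraries and from 0 to 1.37 CPM in mCherry libraries, a log2 change of 2.10 (SE 0.41, adjusted p 0.000181). For Ccn2 no Duxbl library overlapped a mCherry library, and for Ankrd1 the groups overlapped. Both genes could pass the filter on low values through the Duxbl libraries alone. Their separation and p-values also follow a choice made with the values known, so they are descriptions only. Of 16 target genes with a RefSeq promoter, 8 had GGAATG or CATTCC in at least 1 of their windows, as did 4481 of all 27025 genes in the table.

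Of the Hippo kinases and adaptors, 9 were higher and 3 lower among 19 tested, with a median of 0.89 (0.59 with library totals alone). Stk3, the gene of the kinase MST2, averaged 133.8 CPM in Duxbl and 27.5 CPM in mCherry embryos (log2 change 2.21, limma adjusted p 9.38e-06). Lats2, a kinase that phosphorylates YAP and TAZ, averaged 18.3 and 2.04 CPM (2.64, adjusted p 1.62e-05), and Tnik, a related upstream kinase, 44.4 and 8.22 CPM (2.26, adjusted p 6.73e-06). Stk38l, the kinase NDR2, averaged 11.01 and 73.4 CPM and was lower (-2.50, adjusted p 1.02e-05). At early 2C Stk3 averaged 166.5 and 149.0 CPM in Duxbl and mCherry embryos, and Lats2 3.135 and 2.73 CPM. Tnik averaged 21.6 and 17.9 CPM at that stage, and Stk38l 20.1 and 18.1 CPM.

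Of the upstream Hippo regulators, 8 were higher and 5 lower among 23 tested, with a median of 0.44. With library totals alone the calls were 5 and 5, with a median of 0.15. Wwc2, a relative of KIBRA, averaged 657.8 CPM in Duxbl and 255.9 CPM in mCherry embryos (limma adjusted p 5.9e-05). Its early 2C means were 424.2 and 372.5 CPM in the same order. The polarity genes Pard6b and Prkci differed by 1.76 (adjusted p 0.000145) and 1.19 (0.00065) on the log2 scale. Pard6b averaged 47.6 and 14.1 CPM in Duxbl and mCherry embryos, beside early 2C means of 86.9 and 87.0 CPM. Prkci averaged 114.6 and 50.1 CPM, beside early 2C means of 89.0 and 89.2 CPM. Ajuba is in this list as well. Of the PP2A STRIPAK phosphatase complex, which removes phosphate from MST kinases, 3 were higher and 5 lower among 13 tested, with a median of -0.53. With library totals alone they were 3 and 7, with a median of -0.85. Ppp2cb, a catalytic subunit gene, averaged 2.81 CPM in Duxbl and 78.2 CPM in mCherry embryos (-4.56, adjusted p 3.06e-09). Sike1, a part of the complex, was lower too (-3.20, adjusted p 1.23e-07), and Fgfr1op2, another part, was higher (1.45, adjusted p 1.05e-06). Ppp2ca, the other catalytic subunit gene, was picked after its values were seen. It averaged 129.6 CPM in Duxbl and 207.2 CPM in mCherry embryos, and the groups overlapped.

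Of the genes that hold YAP and TAZ in the cytoplasm or turn them over, 4 were higher and 5 lower among 14 tested, with a median of -0.24. With library totals alone they were 4 and 7, with a median of -0.56. Ywhaz, a phosphoserine-binding protein, averaged 655.0 CPM in Duxbl and 170.9 CPM in mCherry embryos (1.93, limma adjusted p 8.78e-09). Its relative Sfn averaged 13.5 and 151.3 CPM (-3.66, adjusted p 9.66e-07). At early 2C Ywhaz averaged 513.3 and 518.1 CPM, and Sfn 17.5 and 20.1 CPM, in the same order. The ubiquitin ligase subunit genes Cul1 and Skp1 changed by 1.76 (adjusted p 4.17e-08) and 1.77 (4.98e-08). Of the VGLL cofactors, which bind TEAD proteins in place of YAP, 2 of 4 were tested and 1 was higher. Vgll1 averaged 18.1 CPM in Duxbl and 2.44 CPM in mCherry embryos (2.48, adjusted p 0.000344), beside early 2C means of 31.0 and 31.2 CPM.

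The trophectoderm genes downstream of Tead4 had 2 members higher and 1 lower among 8 tested, with a median of -0.04 that depended on the alternative. It was 0.03 with voom weights, and -0.30 with library totals alone, where 2 were higher and 2 lower. Gata3, a trophectoderm transcription factor, averaged 92.7 ± 14.6 CPM in Duxbl and 12.8 ± 8.77 CPM in mCherry embryos at late 2C (log2 change 2.98, limma adjusted p 2.53e-06), beside early 2C means of 100.8 and 110.7 CPM. Id2, an inhibitor of helix-loop-helix factors, was higher (1.22, adjusted p 0.00419), and the receptor gene Fgfr2 was lower (-1.78, adjusted p 0.00745). Cdx2 and Elf5 were below the filter at this stage.

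**Figure D4:**
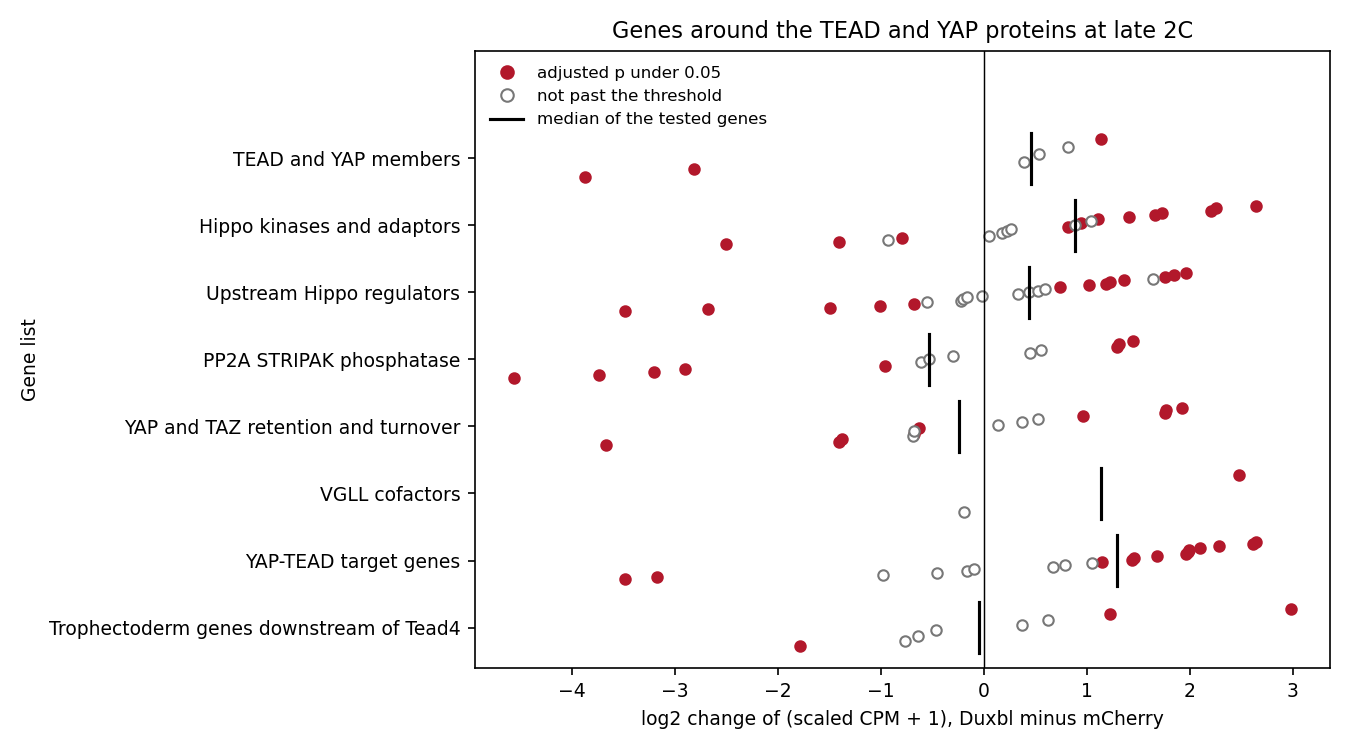
Log2 change between Duxbl and mCherry embryos at late 2C for each tested gene of the members and the 7 lists. Filled points have an adjusted p under 0.05, open points do not, and the vertical bars are medians. The target genes have a median of 1.29 and the STRIPAK list one of -0.53.

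Markers of the embryo itself and of other cells that a tube could hold were measured beside these genes, and their part in the results was not tested. Of 12 oocyte and early embryo markers, 10 were higher and none lower in Duxbl embryos at late 2C, and their summed level was 5515 to 6756 CPM in Duxbl and 2322 to 3042 CPM in mCherry libraries, with no marker at 0. Of 7 tested cumulus and granulosa markers 3 were higher and 2 lower (summed level of the list 21.9 to 65.8 CPM in Duxbl and 21.9 to 30.2 CPM in mCherry libraries, with Inha and Inhba at 0 in all Duxbl libraries and Inha in all mCherry libraries). Of 6 oviduct markers 1, Ovgp1, was higher (78.4 to 182.7 CPM and 45.6 to 155.0 CPM in the same order, none at 0). Of 4 sperm markers 1 was higher and 3 lower (4.08 to 31.6 CPM and 3.13 to 9.42 CPM, with Smcp at 0 in mCherry libraries). Of 3 blood markers 2, the globin genes Hba-a1 and Hba-a2, were lower (3.05 to 13.1 CPM and 30.5 to 48.8 CPM, none at 0). Beside the YAP and TEAD target genes, the oocyte list had the higher median, a log2 change of 1.60, and the target genes 1.29.

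The genes whose pattern was most like each member were found by Pearson's r over the 9 group means of log2(CPM + 1), among 6149 (Tead4) to 17683 (Tead1) genes whose group means spread enough. The 9 points share 3 stages and 1 scaling, and r is a description. For Tead4 these were Zbtb17 (0.997), Gstm2-ps1 (0.997) and Apol7b (0.997). Apol7b averaged 0.276 CPM in Duxbl, 42.4 CPM in mCherry and 59.3 CPM in uninjected embryos at late 2C. For Wwtr1 they were Prrx2, Tomm7 and Psmb1 (each 0.998), of which Psmb1 averaged 23.2, 236.3 and 203.6 CPM in the same order. For Yap1 they were Ermp1 (0.997), Psme4 (0.995) and Rtraf (0.995), and Ermp1 averaged 1585, 568.6 and 552.7 CPM. Tead2 was most like Tapbpl (0.981), Kif15 (0.980) and Minpp1 (0.977), Tead1 most like Itch (0.954), Tent5a (0.950) and Ggh (0.941), and Tead3 most like Scn3a (0.957), Syt12 (0.930) and Tafa5 (0.922).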

How the data were processed

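The deposited table holds 1 whole-number score per gene and library for 35750 genes and 50 libraries. The authors' scaling is not given in the sources used here: the values were treated as a score, since 19 libraries lack some whole number between 1 and 20. The submitters' processing notes name the mm39 build, DESeq and DESeq2 1.36.0, featureCounts 2.0.4, Picard 3.0.0, STAR 2.7.10a and Trimmomatic 0.39. Libraries were made with SMART-Seq v4 and Nextera XT, per the labels' protocols.

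Library sizes were scaled by a trimmed mean (30% of ratios, 5% of levels) over 50 libraries, and log2(CPM + 1) was fitted with limma 3.58.1 in R 4.3.3 (trend and robust variance). A gene was kept when enough libraries to fill the smallest group had a value of 10 or more. Benjamini-Hochberg adjustment ran over all genes tested, and calls had an adjusted p under 0.05. Comparisons within a stage used its own libraries, and steps between stages and interactions used all 9 groups. The test that needs counts was not used. The script was tested on simulated data. Exon lengths came from GENCODE M21, promoters from RefSeq GRCm38.p6.

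The members and lists were chosen with earlier results of these data known. The text names the 6 members, up to 4 called genes of each list by smallest adjusted p, and the 3 genes most like each member; others are said to be chosen after their values were seen. A gene that this rule names is not reported here. Alternatives were another pseudocount, no filter, other scalings, voom weights, other groups in the fit, uninjected controls, the replicate number as a block, and leaving out each library. Leaving out the libraries numbered 4 and 5 and scaling within stages were added after seeing the data. Duxbl against mCherry embryos at late 1C was the comparison in which every same-numbered pair had a correlation of deviations over 0.1 (0.198 to 0.34). Each of the others held at least 1 pair below 0.1, and their highest pairs ran from 0.0802 to 0.395. For Duxbl against mCherry embryos at late 2C the pairs were at -0.00652 to 0.093. The block called the same members and 4 genes at late 1C.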

Additional observations from a re-analysis of the deposited data

Results flagged for a closer look

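The effect of Duxbl on 3 genes differed between late 2C and early 2C in the test of the interaction, where 44.9% of all genes tested were called, a share near that of the members. The difference of the log2 changes was -3.89 for Tead4, -2.78 for Wwtr1 and 1.17 for Yap1.

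Among 54 sets of values, 1 per gene and group, 7 had a library far from the others by Dixon's gap criterion. On normally distributed values it picks about 1 in 20 sets by chance, and the rate for low, skewed values such as these was not measured. Tead3 gave 3 of these. Replicate 3 of the mCherry embryos at early 2C was at 4.30 CPM, with the others from 0.135 to 1.69 CPM. Replicate 4 of the mCherry embryos at late 2C was at 1.63 CPM, with the others from 0 to 0.343 CPM, and replicate 4 of the uninjected embryos at late 2C was at 3.42 CPM, with the others from 0 to 0.893 CPM. Tead1 was at 16.2 CPM in that last library as well, with the others from 4.04 to 8.02 CPM. Tead4 was at 0.433 CPM in Duxbl replicate 6 at late 1C, with the others from 0 to 0.0427 CPM, and at 0.475 CPM in uninjected replicate 3 at late 1C, with the others from 0 to 0.176 CPM. Wwtr1 was at 12.4 CPM in the same uninjected library, with the others from 5.70 to 6.77 CPM.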

How the results depend on the processing

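Tead4, Wwtr1 and Yap1 kept their direction and call at late 2C under every alternative run, with log2 changes of -6.71 to -3.63, -3.21 to -2.60 and 0.82 to 1.29. The 4 calls of the uninjected step from early 2C to late 2C were likewise kept. Genes called between Duxbl and mCherry embryos numbered 4 at late 1C, but 1 with voom weights, 1 in the fit of all 9 groups and 1 without the libraries numbered 4 and 5 (3 to 6 leaving out 1 library). At early 2C the 89 became 4 with voom weights, 163 against uninjected embryos and 40 without libraries 4 and 5 (54 to 108 leaving out 1 library). In the fit of all 9 groups, mCherry against uninjected embryos gave 40 genes at late 2C and 1 at early 2C, in place of 0. From late 1C to early 2C, uninjected embryos gave 844 genes, but 1600 in a fit of the compared groups and 397 without libraries 4 and 5 (523 to 936 leaving out 1). Duxbl embryos gave 250, but 389 with voom weights, 385 with the replicate block, 734 in the fit of the compared groups and 37 without libraries 4 and 5 (93 to 317 leaving out 1). The interaction of early 2C and late 1C gave 1 gene, but 0 with a pseudocount of 0.1, 2 with no filter, 0 with voom weights, 9 in the fit of the compared groups and 0 without libraries 4 and 5 (0 to 3 leaving out 1). The cause of these changes was not tested.

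Of the members, 1 was called over the uninjected step from late 1C to early 2C with a pseudocount of 0.1. The Duxbl step to late 2C called 2, but 1 on the deposited scale and 1 in the fit of the compared groups (0 to 3 leaving out 1 library). That fit of the compared groups tested 5 members, since Tead4 fell below its filter. Without libraries 4 and 5 it also called 2, with Tead1 in place of Yap1. Leaving out 1 library, 3 to 4 were called between Duxbl and mCherry embryos at late 2C. The interaction for Tead2 was -0.01, but 0.046 on the deposited scale, 0.42 without libraries 4 and 5 and -0.23 to 0.19 leaving out 1 library. For Wwtr1 the Duxbl step was -0.39 to 0.0059 leaving out 1 library. The replicate block changed no member call. Depth is unknown, so the counting error of low values such as those of Tead3 cannot be estimated.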
